A study of Rattus norvegicus with 6 samples.

Results

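The Wnt feedback and target genes were taken as 10 genes, Axin2, Lef1, Tcf7, Nkd1, Nkd2, Apcdd1, Rnf43, Znrf3, Lgr5 and Lgr6, in the RNA-seq counts of rat neonatal cardiomyocytes. A row of the count table was a member if its gene name was one of these symbols, or if it was an unannotated transcript added by the authors that overlapped such a gene on the same strand. The rule found 9 annotated genes and 2 added transcripts, 11 of the 43035 rows of the table, and Znrf3 was not analysed here. The libraries came from hearts of Sprague-Dawley rats, labelled as postnatal day 1, whose cardiomyocytes were grown in primary culture and received scrambled siRNA (si-NC, 3 libraries) or siRNA against DYRK1A (si-DYRK1A, 3 libraries). Cells of both groups were harvested 48 h after transfection and had gone through the same culture and transfection. DYRK1A is a protein kinase, and the comparison asked how the mRNA of each gene differed when it was targeted. The cells had been enriched by differential attachment only, and how many animals gave a culture is not given in the sources used here, so that p-values measure the spread between these libraries.

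In canonical Wnt signalling, a secreted Wnt protein binds a Frizzled receptor and an LRP co-receptor, and the complex that marks β-catenin for degradation is then held back. β-catenin accumulates, enters the nucleus and joins DNA-binding factors of the TCF/LEF family at target genes. Many of these targets act back on the pathway, so that a cell that receives a Wnt signal also makes its inhibitors, and their mRNA is widely read as a sign of the signal. In the heart the pathway is known for its stage-dependent parts in forming and expanding cardiac progenitors.

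The sequences before the start of Axin2, Nkd1 and Lef1 are shown because Axin2 was the only member called in the comparison, whereas Nkd1 and Lef1 had enough counts for narrow intervals and were not called. The same holds for Apcdd1, whose sequence is not shown. They are the 250 bases before the gene start in RefSeq on the build GRCr8, which is not the build of the count table (Rnor_6.0), and are written 5′ to 3′ on the strand of the gene. Capitals mark the core of the TCF/LEF site, CTTTGA, and its longer form CTTTGAT.
Axin2 (chr10:94398535-94398784, plus strand): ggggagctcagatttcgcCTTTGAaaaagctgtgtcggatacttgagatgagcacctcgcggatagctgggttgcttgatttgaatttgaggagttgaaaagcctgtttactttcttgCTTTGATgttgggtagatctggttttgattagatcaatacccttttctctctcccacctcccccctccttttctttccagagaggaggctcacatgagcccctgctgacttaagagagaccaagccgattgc
Nkd1 (chr19:34722847-34723096, minus strand): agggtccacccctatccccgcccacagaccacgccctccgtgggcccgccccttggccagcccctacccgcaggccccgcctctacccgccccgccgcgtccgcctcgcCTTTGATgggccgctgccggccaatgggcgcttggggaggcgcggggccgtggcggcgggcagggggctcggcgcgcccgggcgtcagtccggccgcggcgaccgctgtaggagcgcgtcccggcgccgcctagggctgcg
Lef1 (chr2:222340463-222340712, plus strand): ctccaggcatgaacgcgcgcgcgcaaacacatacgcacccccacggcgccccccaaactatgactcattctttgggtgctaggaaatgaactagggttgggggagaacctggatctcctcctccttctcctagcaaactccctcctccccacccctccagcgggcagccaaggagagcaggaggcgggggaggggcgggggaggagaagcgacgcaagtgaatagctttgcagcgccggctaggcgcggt
Of the 10 genes, 8 matched an entry, and Lgr5 and Znrf3 did not. In windows of 300 bases, which also take in the bases after the start, CTTTGA or its reverse complement TCAAAG was present in 4 of the 8 (Axin2, Tcf7, Nkd1 and Apcdd1), compared with 16.1% of 33469 promoters. CTTTGAT or ATCAAAG, which contains the shorter motif, was present in 3 of the 8 (132 bases before the start in Axin2, 141 in Nkd1 and 4 in Tcf7), compared with 3.63% of all promoters. Axin2 held a second CTTTGA 232 bases before its start, and that of Apcdd1 lay 214 bases before. These matches describe the letters of the windows and do not show binding.

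The 6 libraries held 10325074 to 11921772 counts, of which added transcripts took 17.2% to 17.5%. No library repeated another, with a chi-square per degree of freedom of 2.49 to 5.87 between libraries of a group, where sampling noise alone gives about 1. The row of Dyrk1a held 3, 0 and 1 counts in si-NC libraries and 2, 1 and 0 in those labelled si-DYRK1A. An added transcript that spans the whole gene held 777 to 971 counts per library and was not lower in the si-DYRK1A-labelled libraries. Its log2 fold change was 0.08 (adjusted p = 0.374, edgeR), a fold of 1.06 (95% confidence interval 0.976 to 1.15), and the groups overlapped. Whether its counts come from the exons of Dyrk1a is not known. The counts therefore show no fall in Dyrk1a that would check the labels, and every direction below rests on these labels. The study followed the knockdown by the DYRK1A protein in other samples, which were not analysed here. Of the markers for cardiomyocytes, 3 of 4 tested were called higher in the si-DYRK1A-labelled libraries (Actn2, Nppa and Pln), while Tnni3, Myh6 and Myh7 stood at 0 and each lay under an added transcript. Called lower were 4 of 4 tested epicardial markers (Wt1, Upk3b, Msln and Krt19), 3 of 6 endothelial markers (Cdh5, Tek and Tie1) and 1 of 4 Schwann cell markers (S100b). Of 6 tested fibroblast markers, 2 were called higher (Lum and Postn) and 0 lower. Over all features tested, 8.03% were called higher and 7.19% lower.

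Among the members, only Axin2 passed the test, and it was higher in the si-DYRK1A-labelled libraries. Of the 11 rows, 8 had enough counts to be tested, namely those of Axin2, Lef1, Nkd1, Apcdd1, Rnf43, Lgr5 and Lgr6 and the added transcript over Tcf7, while the annotated rows of Tcf7 and Nkd2 and the added transcript over Nkd2 did not. By the quasi-likelihood test of edgeR, 1 of the 8 rows passed as higher and 0 as lower at an adjusted p below 0.05 (n = 3 libraries per group), and 2 of 8 had an unadjusted p below that value, compared with 27.4% of all features. Over the 15513 features tested, 15.2% were called, with 8.03% higher and 7.19% lower. The share among the members, 12.5%, thus lay near that of all features. The median log2 fold change of the 8 rows was -0.08 and that of all features 0.00, and the median absolute log2 fold change was 0.13 and 0.18, respectively. Groups did not overlap for 1 of the 8 rows, compared with 31.5% of all features tested (16.2% higher and 15.3% lower).

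**Figure D1:**
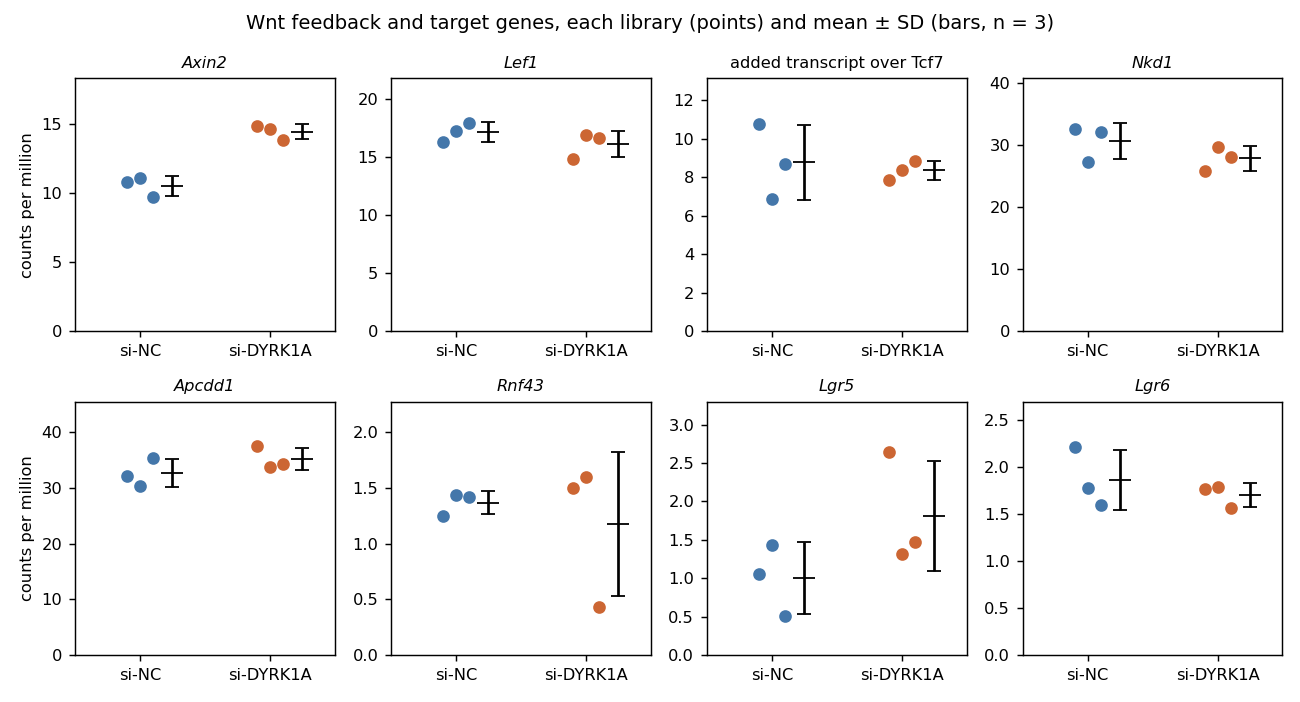
Library-scaled counts (CPM, TMM-normalized, vertical axes from 0) of the 8 tested rows in each si-NC (blue) and si-DYRK1A (orange) library, with the mean and SD of 3 libraries beside the points. Axin2 is the only panel in which all si-DYRK1A points lie above all si-NC points.

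The members differed widely in level. On the scale of FPKM, which divides counts by gene length, Nkd1 had the highest mean over the 6 libraries (11.4), followed by Apcdd1 (10.7), Lef1 (6.42), Axin2 (3.11) and the added transcript over Tcf7 (2.12). Lgr6 (0.609), Rnf43 (0.538) and Lgr5 (0.445) were lower. The ranges over the libraries overlapped between Nkd1 and Apcdd1, between Axin2 and the transcript over Tcf7, and among the last 3 genes. The order within these sets thus did not exceed the spread between libraries. Within each of the 6 libraries, however, Axin2 lay above the transcript over Tcf7. The FPKM of Nkd1 exceeded that of 69.5% of the features tested, that of Axin2 43.4% and that of Lgr5 6.34%. With 5 to 30 counts per library, Rnf43, Lgr5 and Lgr6 were measured with far less precision than the others. In these mixed cultures, a lower level cannot be told apart from fewer cells of a type that makes the mRNA, here and in what follows.

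Axin2 encodes a scaffold of the β-catenin degradation complex, which brings APC, GSK3 and casein kinase 1 together, and is a direct Wnt target that limits the signal. The gene (ENSRNOG00000055010) lies on chromosome 10 of Rnor_6.0, 97212432 to 97239642, on the plus strand. It held 113, 131 and 116 counts in si-NC libraries and 169, 156 and 160 in those labelled si-DYRK1A. Scaled to library size as CPM, the levels were 10.8, 11.1 and 9.70 CPM against 14.9, 14.7 and 13.8 CPM. Each library labelled si-DYRK1A was thus higher than every si-NC library. The mean rose from 10.5 ± 0.736 to 14.5 ± 0.544 CPM (SD, n = 3), that is 1.37-fold (95% confidence interval 1.15 to 1.64), or by 0.46 on the log2 scale (standard error 0.122, adjusted p = 0.0130, edgeR). The exact permutation test over the libraries gave p = 0.1, the smallest value that 3 against 3 allows. The call was lost without si-NC replicate 3 (log2 fold change 0.39, adjusted p = 0.0634, edgeR) and without si-DYRK1A replicate 2 (0.45, adjusted p = 0.0556, edgeR), and on log2(FPKM + 1) (adjusted p = 0.0529, limma).

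Because a ratio of counts within a library does not depend on how libraries are scaled, Axin2 was also set against the other members with at least 81 counts in every library, a comparison chosen after the values had been seen. The ratio of Axin2 to Lef1 was 0.665, 0.642 and 0.540 in the si-NC libraries and 1.00, 0.867 and 0.829 in the si-DYRK1A-labelled libraries, with no overlap. For Axin2 to Nkd1, the means were 0.347 ± 0.0538 and 0.521 ± 0.0484 (SD, n = 3), and for Axin2 to Apcdd1 0.325 ± 0.0464 and 0.411 ± 0.0203 (SD, n = 3), again without overlap. Each of these 3 ratios had an exact permutation p = 0.1. They share the counts of Axin2, the only member called, set against members not called, and so give no independent test of it. The ratio of Axin2 to the transcript over Tcf7, 1.25 ± 0.325 and 1.74 ± 0.165 (SD, n = 3), did overlap between groups (exact permutation p = 0.2).

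**Figure D2:**
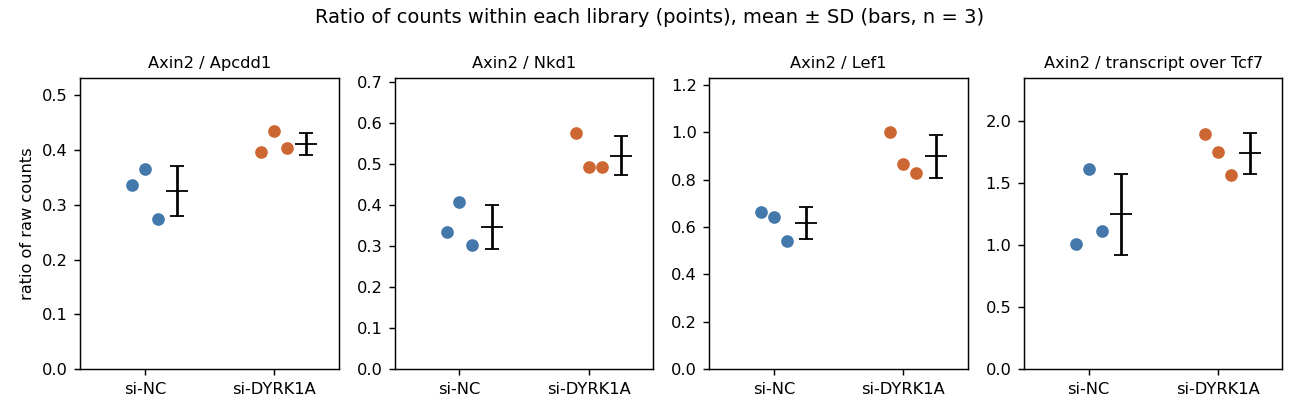
Ratio of the raw counts of Axin2 to those of 4 other members within each library (vertical axes from 0), with the mean and SD of 3 libraries per group. For Lef1, the si-DYRK1A ratios (0.829 to 1.00) lie above the si-NC ratios (0.540 to 0.665), whereas the ratios to the transcript over Tcf7 overlap.

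Lef1 and Tcf7 encode DNA-binding partners of β-catenin that are themselves Wnt targets. Lef1 (ENSRNOG00000010121, chromosome 2, 236233239 to 236345056, plus strand) held 170, 204 and 215 counts in si-NC libraries and 169, 180 and 193 in those labelled si-DYRK1A. Its levels were 16.3, 17.3 and 18.0 CPM against 14.9, 17.0 and 16.7 CPM, and the groups overlapped. The log2 fold change was -0.09 (95% confidence interval -0.31 to 0.13, adjusted p = 0.653, edgeR), so that the interval took in a fold from 0.806 to 1.10.

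The annotated row of Tcf7 (ENSRNOG00000005872, chromosome 10, 37617279 to 37645802, minus strand) held 4, 1 and 0 counts in si-NC libraries and 0, 2 and 2 in those labelled si-DYRK1A. The added transcript (37615952 to 37646973) spans the whole gene and held 112, 81 and 104 counts against 89, 89 and 102. Whether these counts come from the exons of Tcf7 is not known. Its levels were 10.7, 6.85 and 8.70 CPM in si-NC libraries and 7.83, 8.38 and 8.83 CPM in the si-DYRK1A-labelled libraries, which all lay within the range of the si-NC libraries. The log2 fold change was -0.07 (95% confidence interval -0.42 to 0.29, adjusted p = 0.853, edgeR), and it turned to 0.10 without si-NC replicate 1.

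Nkd1 and Nkd2 (Naked cuticle homologues) bind Dishevelled and dampen the signal inside the cell. Nkd1 (ENSRNOG00000014293, chromosome 19, 19436333 to 19509087, minus strand) held 339, 322 and 384 counts in si-NC libraries and 293, 316 and 325 in those labelled si-DYRK1A. Its levels were 32.5, 27.2 and 32.1 CPM against 25.8, 29.8 and 28.1 CPM, and si-NC replicate 2 lay among the libraries of the other group. The log2 fold change was -0.13 (95% confidence interval -0.33 to 0.06, adjusted p = 0.377, edgeR). Nkd2 (ENSRNOG00000016103, chromosome 1, 32058044 to 32084877, plus strand) and the added transcript of the same span had 0 counts in every library. Ctnnb1, which also lies under an added transcript of its own span, and the cardiomyocyte genes Myh6, Myh7 and Tnni3 are listed at 0 too, so that these zeros set no upper limit on the level of Nkd2.

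Apcdd1 encodes a membrane-bound inhibitor that binds Wnt and LRP proteins at the cell surface. The gene (ENSRNOG00000043304, chromosome 18, 58270410 to 58301002, plus strand) held 336, 359 and 423 counts in si-NC libraries and 426, 359 and 397 in those labelled si-DYRK1A. Its levels were 32.2, 30.4 and 35.4 CPM against 37.5, 33.8 and 34.4 CPM. The groups overlapped, and the log2 fold change was 0.11 (95% confidence interval -0.07 to 0.28, adjusted p = 0.439, edgeR).

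Rnf43 encodes a transmembrane ubiquitin ligase that removes Frizzled receptors from the cell surface. The gene (ENSRNOG00000007606, chromosome 10, 74959285 to 75028951, plus strand) held 13, 17 and 17 counts in si-NC libraries and 17, 17 and 5 in those labelled si-DYRK1A. The low value belonged to si-DYRK1A replicate 3 alone, and the other two lay above all si-NC libraries in CPM (1.49 and 1.60 against 1.25 to 1.44). The log2 fold change of -0.23 (95% confidence interval -1.10 to 0.65, adjusted p = 0.781, edgeR) turned to 0.17 without that library, so that this depth could not resolve a difference.

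Lgr5 and Lgr6 encode receptors for R-spondins, which protect Frizzled receptors from Rnf43 and Znrf3, and Lgr5 is a Wnt target that marks stem cells in several epithelia. Lgr5 (ENSRNOG00000004221, chromosome 7, 58448277 to 58587787, minus strand) held 11, 17 and 6 counts in si-NC libraries and 30, 14 and 17 in those labelled si-DYRK1A. The mean was 0.998 ± 0.471 CPM (SD, n = 3) in the former and 1.81 ± 0.722 CPM (SD, n = 3) in the latter, and the groups overlapped. Lgr5 had the largest fitted change among the members, a log2 fold change of 0.86, but also a wide error (standard error 0.413, 95% confidence interval 0.00 to 1.72, adjusted p = 0.182, edgeR). With single libraries left out, it lay between 0.48 and 1.23. Lgr6 (ENSRNOG00000005093, chromosome 13, 51815215 to 51930972, minus strand) held 23, 21 and 19 counts against 20, 19 and 18 counts. Its groups overlapped in CPM, and the log2 fold change of -0.12 (95% confidence interval -0.77 to 0.53, adjusted p = 0.855, edgeR) turned to 0.014 without si-NC replicate 1.

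**Figure D3:**
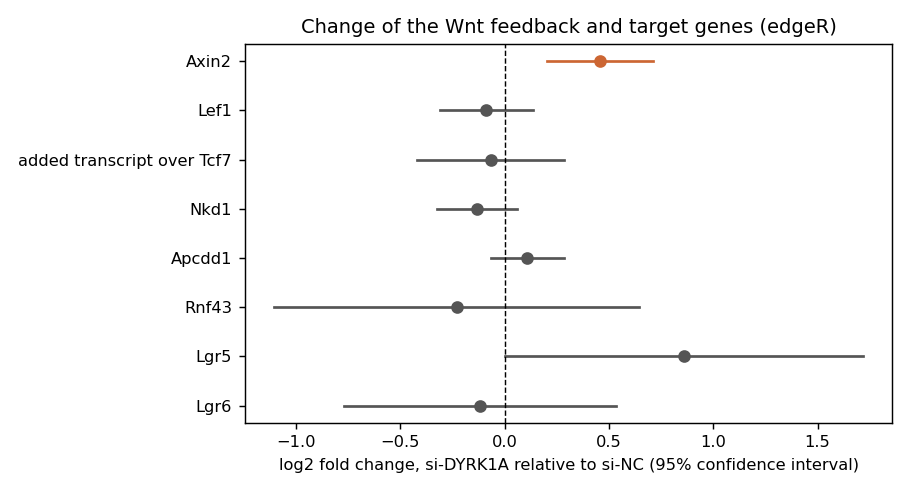
Log2 fold change of each tested row in the si-DYRK1A-labelled libraries relative to si-NC (edgeR, 3 libraries per group), with the 95% confidence interval as a line and Axin2 in orange. The interval of Axin2 lies above 0, and that of Lgr5 (0.00054 to 1.72) lies barely above it. Those of Lgr5 and Rnf43 (-1.10 to 0.65) are the widest, and those of Lef1, Nkd1 and Apcdd1 are narrow and cross 0.

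For the pattern over the 6 libraries, the log2 CPM of Axin2 was compared with those of 9681 annotated genes. The most alike were P2ry1, a receptor for extracellular nucleotides (Pearson r = 0.998), and the interferon-induced genes Ifi27 (0.998) and Ifit3 (0.997). In all, 186 genes had an r above 0.95, and these values rest on 6 libraries that fall into the compared groups.

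The other genes of the pathway were described with 102 symbols in lists by role, of which 101 were found and 48 tested. Of these, 7 passed as higher and 1 as lower with si-DYRK1A (16.7%, compared with 15.2% of all features tested), and their median log2 fold change was 0.06. The 53 genes not tested include Ctnnb1, the gene of β-catenin, with 0 counts on its row and 9 on the added transcript over it, and 37 of them lay under an added transcript of their strand. The level of Ctnnb1 was therefore not measured here.

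On the list of antagonists, which holds secreted and membrane-bound proteins, 3 of 9 tested genes were called (33.3%, compared with 15.2% of all features tested). Of these, 3 were higher and 0 lower, compared with 8.03% and 7.19% of all features tested. The median log2 fold change of the 9 genes was 0.24. Dkk2, which binds the LRP co-receptors, had 52, 48 and 42 counts in si-NC libraries and 133, 113 and 139 in those labelled si-DYRK1A. It rose from 4.19 ± 0.745 to 11.5 ± 0.725 CPM (SD, n = 3), that is 2.74-fold or by 1.46 on the log2 scale (standard error 0.171, adjusted p = 3.54e-06, edgeR). Sfrp1 and Sfrp2 encode secreted proteins that resemble the Wnt-binding part of Frizzled. Sfrp1 rose from 399.4 ± 29.7 to 603.6 ± 11.8 CPM (SD, n = 3) or by 0.60 on the log2 scale (adjusted p = 2.98e-08, edgeR), and the added transcript over it rose by 0.66 (adjusted p = 4.58e-05, edgeR). Sfrp2 rose from 47.1 ± 3.23 to 64.7 ± 5.27 CPM (SD, n = 3) or by 0.46 on the log2 scale (adjusted p = 0.000177, edgeR). In all 3 genes the groups did not overlap, as in 31.5% of all features tested. Of the other 6, the log2 fold changes ran from -0.34 for Tmem88, a membrane protein, to 0.53 for Dkk3 (adjusted p = 0.563 and 0.165, edgeR), both named after their values were seen. Of 6 tested added transcripts over genes of this list, 2 were called higher and 0 lower. That over Dkk1, also named after its values were seen, was not called but was lower without overlap. Its level was 16.1 ± 0.309 CPM for si-NC and 13.0 ± 0.569 CPM for si-DYRK1A (SD, n = 3, log2 fold change -0.30, adjusted p = 0.0691, edgeR).

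Upstream of these, 1 of 7 tested genes for Wnt ligands and their processing was called (14.3%, compared with 15.2% of all features tested). This was Wnt4, which rose from 23.7 ± 3.75 to 33.7 ± 2.43 CPM (SD, n = 3, log2 fold change 0.51, adjusted p = 0.00174, edgeR). Wnt2b did not pass (-0.05, adjusted p = 0.836, edgeR). Of 8 tested receptor genes, 1 was called (12.5%, compared with the same 15.2%). This was Fzd1, with 846.7 ± 28.8 CPM (SD, n = 3) for si-NC against 1059 ± 37.9 CPM (SD, n = 3) for si-DYRK1A (log2 fold change 0.32, adjusted p = 1.36e-05, edgeR). Ptk7, a Wnt co-receptor that lacks kinase activity, did not pass (-0.08, adjusted p = 0.422, edgeR). None of the 3 tested R-spondin genes was called, with log2 fold changes of -0.14 for Rspo3 and -0.30 for Rspo4 (adjusted p = 0.483 and 0.685, edgeR). Rspo2, named after its values were seen, had the largest difference of the 3 and the other sign, with 2.33 ± 0.868 and 3.94 ± 0.751 CPM (SD, n = 3), no overlap between groups and a difference of 0.76 on the log2 scale (adjusted p = 0.0734, edgeR), and it passed without si-NC replicate 2. Lgr4, the relative of Lgr5 and Lgr6, was measured only on an added transcript, with 605 to 740 counts per library and a difference of 0.07 on the log2 scale (adjusted p = 0.508, edgeR).

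Inside the cell, 2 of 7 tested genes were called (28.6%, compared with 15.2% of all features tested). Both changes were small and kept their direction in all 16 alternatives, while the calls depended on the test and on single libraries. With single libraries left out, the log2 fold change was 0.13 to 0.19 for Tnks and -0.42 to -0.24 for Apc2. Tnks, a tankyrase that marks Axin proteins for degradation, rose by 0.15 on the log2 scale (adjusted p = 0.0294, edgeR). It did not pass by DESeq2 (adjusted p = 0.0601), by limma on any FPKM scale or with scaling by library size alone (adjusted p = 0.0688, edgeR). Nor did it pass with the replicate number as a block (adjusted p = 0.0588, edgeR) or when either si-NC replicate 1 (0.0981) or 3 (0.0919) or either si-DYRK1A replicate 1 (0.128) or 3 (0.129) was left out. Apc2, a relative of APC, fell by 0.31 on the log2 scale (adjusted p = 0.0393, edgeR). It did not pass by DESeq2 (adjusted p = 0.0699) or by limma on any FPKM scale. The call was also lost when si-NC replicate 1 (0.166) or 2 (0.129) or si-DYRK1A replicate 1 (0.0668), 2 (0.197) or 3 (0.0613) was left out. Gsk3b, the kinase that phosphorylates β-catenin, did not pass (-0.10, adjusted p = 0.241, edgeR). None of the 6 tested genes of the nuclear list was called, with log2 fold changes of -0.15 for Pygo2 and -0.20 for Ctnnbip1 (adjusted p = 0.112 and 0.110, edgeR). Without si-NC replicate 3, these 2 passed (0.0159 and 0.0331, edgeR). Of 8 tested genes on the list of other targets, 1 was called (12.5%, compared with 15.2% of all features tested). This was Bambi, which encodes a decoy receptor of the TGF-β family. It rose from 97.3 ± 1.44 to 123.6 ± 4.85 CPM (SD, n = 3; log2 fold change 0.35, adjusted p = 5.47e-05, edgeR), whereas Cd44 did not pass (0.05, adjusted p = 0.468, edgeR).

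**Figure D4:**
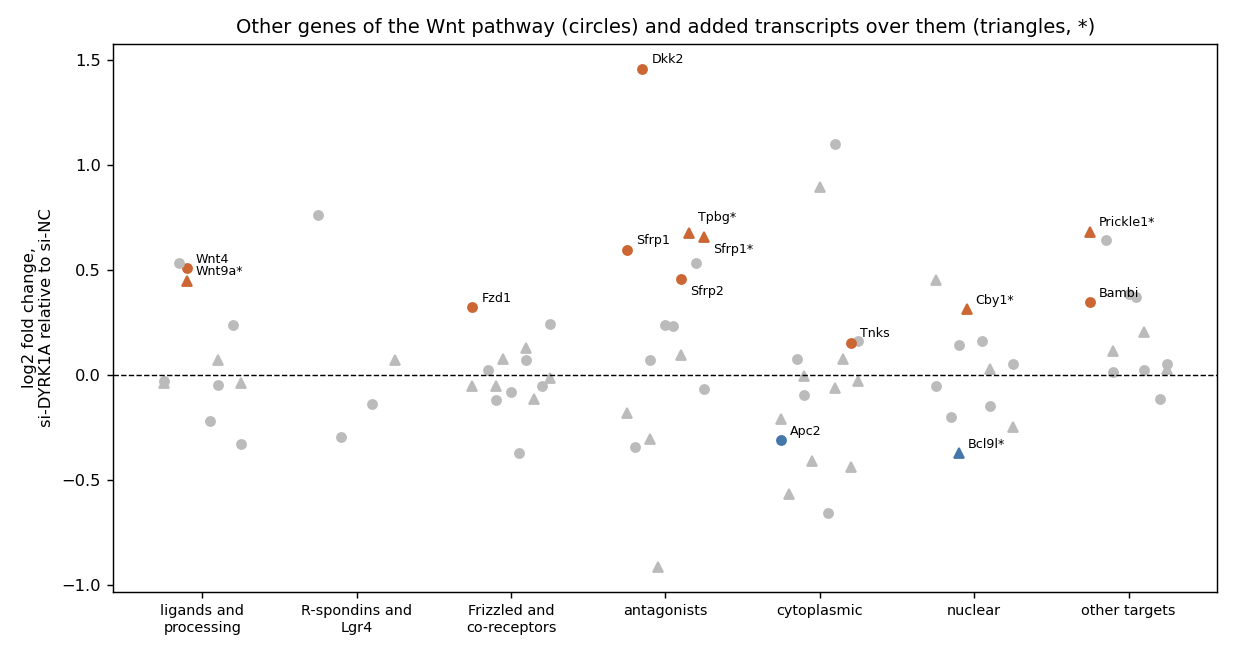
Log2 fold change in the si-DYRK1A-labelled libraries relative to si-NC of the 48 tested pathway genes outside the members (circles) and of 35 tested added transcripts over such genes (triangles, with the gene name and an asterisk), by role, with calls at an adjusted p below 0.05 in orange (higher) and blue (lower) and the others in grey. Horizontal offsets within a role only separate the points, and Dkk2 has the largest value at 1.46.

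Of 35 tested added transcripts over pathway genes, 5 were called higher and 1 lower (compared with 8.03% and 7.19% of all features tested), and these were named after their values had been seen. The calls over Wnt9a (0.45, adjusted p = 0.0439, edgeR) and Cby1 (0.31, adjusted p = 0.0391, edgeR) were lost in 11 and 10 of 15 alternatives, that over Tpbg (0.67, adjusted p = 0.0187, edgeR) in 6 of 15 and that over Prickle1 (0.68, adjusted p = 0.00110, edgeR) in 3 of 15. The transcript over Bcl9l, a co-factor of β-catenin, was the lower one (-0.37, adjusted p = 0.00202, edgeR). It also overlaps 1 other annotated gene of its strand, and it passed in 13 of 16 alternatives, not by limma on the FPKM scales (adjusted p = 0.0824 to 0.147). Among these, leaving out any library but si-DYRK1A replicate 3 ended the call over Wnt9a, any but si-DYRK1A replicate 1 that over Cby1, and si-NC replicate 1 or 2 or si-DYRK1A replicate 2 that over Tpbg.

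The summed markers of other cell types moved beside these results. Summed CPM ranged from 8882 to 9728 in the si-NC libraries and from 11402 to 12253 in the si-DYRK1A-labelled libraries for cardiomyocytes, from 169.7 to 188.5 and 137.8 to 143.7 for endothelial cells, from 91.6 to 96.6 and 70.3 to 73.8 for the epicardium (Tbx18 at 0), and from 21.4 to 22.7 and 15.1 to 19.3 for Schwann cells. Most of the cardiomyocyte sum was Nppa (7557 ± 370.6 and 9782 ± 474.8 CPM, SD, n = 3). Actn2 and Pln, also called higher, had log2 fold changes of 0.31 and 0.15. Tnnt2, tested but not called, had -0.14 (adjusted p = 0.595, edgeR). Fibroblast markers summed to 21531 to 26245 and 20368 to 21107 CPM, with Lum and Postn called higher, 2 of 6 tested, and Pdgfra at 0. The lower sum came from Col1a1 (14341 ± 1917 and 11113 ± 196.3 CPM, SD, n = 3; adjusted p = 0.0869, edgeR), whereas the other 5 tested markers had log2 fold changes of 0.02 to 1.10. Smooth muscle and pericyte markers (688.6 to 721.8 and 710.0 to 729.0 CPM, 0 of 3 tested called, Myh11 and Acta2 at 0) and macrophage markers (126.8 to 139.0 and 120.6 to 133.6 CPM, 0 of 5 tested called, Cd68 at 0) overlapped between the groups. Their part in the levels of Axin2, Dkk2, Sfrp1 and the other called genes was not tested.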

How the data were processed

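RNA-seq was analysed in 6 libraries, grouped by their labels. The authors deposited raw counts per gene and FPKM values, mapped to Rnor_6.0 with HISAT2 according to their methods, whereas the submitters' processing notes name mm8 and Bowtie 0.12.2. The labels give a TruSeq kit and postnatal day 1, and the methods a NEBNext kit and 1 to 2 days. The counting tool, the annotation release and any strand setting were not given in the sources used here, so reads of antisense partners may not have been told apart. Rows without a gene name held 17.2% to 17.6% of counts and stayed in, each under its own identifier.

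Counts were compared with the quasi-likelihood test of edgeR 4.0.16 (R 4.3.3, TMM, robust fit, filterByExpr with a minimum count of 10 in 3 libraries and a total of 15), two-sided, with Benjamini-Hochberg adjustment over 15513 features. The alternatives, on counts with edgeR and DESeq2 1.42.0 and on FPKM with limma 3.58.1, stand in the closing section. Scripts were tested on simulated data. Members and lists were chosen with earlier results of these data known. Of the lists, genes called and the 2 of highest mean FPKM on their annotated rows were named, and the 3 genes most correlated with a called member. Added transcripts were left out of this ranking, and that over the ligand-list gene Wls had a higher mean FPKM (36.1) than Wnt2b (8.24).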

Additional observations from a re-analysis of the deposited data

How the results depend on the processing

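Over all features, 2360 were called in the report, compared with 1199 by limma on log2(FPKM + 1), 1180 on log2(FPKM + 0.1), 591 on log2(FPKM + 1) without a filter on low FPKM, 1307 at an adjusted p below 0.01, and 1614 to 2210 when single libraries were left out. Among the members, the count fell from 1 to 0 by limma on all 3 FPKM scales and at an adjusted p below 0.01, and was 0 to 1 with each library left out, 0 without si-NC replicate 3 and without si-DYRK1A replicate 2. Of the other pathway genes, 8 were called, and 5, 5 and 4 on the FPKM scales, 6 to 9 with each library left out, 6 by DESeq2 and 12 when counts of added transcripts were summed with their gene. Scaling by RLE or by library size alone, testing all rows and asking for at least 10 counts in every library each gave 1 member and 8 other pathway genes. These 8 were the same genes, except that with library size alone the receptor gene Fzd4 was called and Tnks was not. Axin2 kept its direction in all 16 alternatives (log2 fold change 0.34 to 0.49) and passed the threshold in 11, with adjusted p between 0.0136 and 0.0925 (0.0454 by DESeq2, and 0.0529, 0.0520 and 0.0925 by limma on the FPKM scales). Dkk2, Sfrp1, Fzd1 and Bambi passed in all 16, Sfrp2 in 15, Wnt4 in 13, Apc2 in 7 and Tnks in 6. The sign was reversed for the transcript over Tcf7 (0.10) and Lgr6 (0.014) without si-NC replicate 1, and for Rnf43 (0.17) without si-DYRK1A replicate 3, where leaving out single libraries gave ranges of -0.22 to 0.10, -0.23 to 0.014 and -0.51 to 0.17. The causes were not tested, except that fewer libraries enter each fit with a library left out.

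The labels number the replicates alike in both groups, but the deviations of same-numbered libraries correlated by only 0.07, -0.02 and -0.01, so that the numbers were not taken as pairs. With the replicate number as a block, 2269 features, 1 member (Axin2, log2 fold change 0.46, adjusted p = 0.0161, edgeR) and 7 other pathway genes were called. At this depth, differences in genes with 5 to 30 counts per library were not resolved. Nkd2 and Ctnnb1, which lie under added transcripts of the same span, and Znrf3 were not compared, whatever the depth.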
